A study of Arabidopsis thaliana with 24 samples.

Results

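Feeding by the spider mite Tetranychus urticae on not-primed Arabidopsis thaliana was measured across all genes by RNA sequencing. The 8 libraries were chosen by their labels, out of 24 in the series: 4 from plants sampled 24 hours after mite infestation and 4 from uninfested controls. All 8 came from rosettes of WT plants grown from seed treated with H2O, which the labels call Non-Primed, and the controls differ by label only in lacking the pest. Caterpillars of Pieris brassicae were applied to not-primed plants for the same time (4 libraries), and plants from seed treated with methyl jasmonate carried the same 3 conditions (12 libraries). The labels number biological replicates without saying whether each is a plant or a pool, so each test measures how these libraries vary, which may in part be technical variation.

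Spider mites pierce single leaf cells with a stylet and suck out their content, leaving pale spots rather than holes. Wounded leaf cells make jasmonic acid in the chloroplast and peroxisome. Its isoleucine conjugate binds the receptor COI1, JAZ repressors are destroyed and MYC transcription factors are released, and these switch on defence proteins, indole glucosinolates and volatiles. Salicylic acid, the hormone of defence against biotrophic pathogens, is known to be induced by sucking arthropods as well, and the 2 hormones restrain each other at several points.

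Library totals were between 18868846 and 23641080 counts under mites and between 20930058 and 22084808 in controls. Of 20038 genes tested, 10298 were called changed (51.4%), meaning a Benjamini-Hochberg adjusted p under 0.05 in edgeR's quasi-likelihood test, with 5310 higher (26.5%) and 4988 lower (24.9%). Counts of list members are read against these percentages and beside the size of the change. At a fold of 2 or more, 1607 genes were higher (8.02%) and 464 lower (2.32%), and at a fold of 4 or more 575 were higher and 58 lower. The median log2 fold change over all tested genes was 0.01. The mite and control libraries did not overlap in 9182 genes (45.8%), with all mite libraries above all controls in 4699 (23.5%) and below them in 4483 (22.4%). Fold changes below are log2, mites minus control, ± SE with 4 libraries in each group, and levels are CPM, TMM-normalised counts scaled to a common library size.

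The control libraries stood apart in pairs. On the first principal component of the 8 libraries, which held 71.6% of the variance, the mite libraries scored 61.6, 49.4, 51.9 and 60.8, control replicates 1 and 2 scored -84.5 and -81.8, and control replicates 3 and 4 scored -28.0 and -29.4. The root mean square log2 difference was 0.678 to 0.761 between a mite library and control replicate 3 or 4, 0.988 to 1.094 between a mite library and control replicate 1 or 2, and 0.574 to 0.628 across the 2 control pairs. For this reason the counts of each gene list below also say how many members were called against both pairs, and each called gene named with a change was called against both unless its text says otherwise. Against replicates 1 and 2 alone 10131 genes were called (50.6%), 5185 higher (25.9%) and 4946 lower (24.7%). Against replicates 3 and 4 alone 7562 were called (37.7%), 3704 higher (18.5%) and 3858 lower (19.3%). The count called in the same direction with all controls and against each pair was 6913 (34.5%), with 3382 higher (16.9%) and 3531 lower (17.62%). Another 3214 genes were called only against replicates 1 and 2, 645 only against replicates 3 and 4, and 4 were called in opposite directions. What sets the control pairs apart is not in the labels and was not tested.

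**Figure D1:**
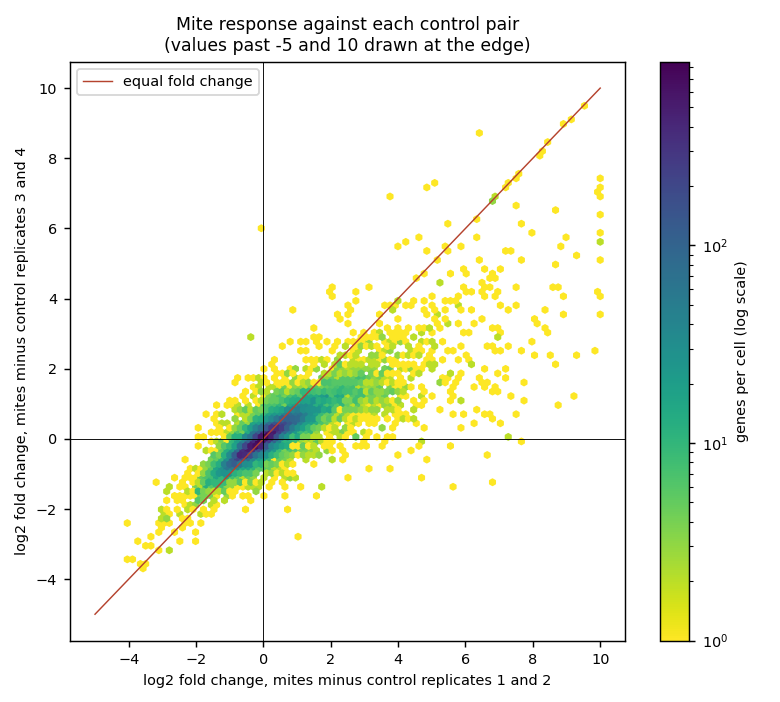
Each tested gene by its log2 fold change against control replicates 1 and 2 (horizontal axis) and against control replicates 3 and 4 (vertical axis), with colour for the number of genes per cell on a log scale. Most genes with large positive values lie below the line of equal change, so their fold was larger against replicates 1 and 2.

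Promoters of 5 genes from the lists below, picked for their motifs, are printed. Each is the 250 bases before the annotated gene start, from the RefSeq annotation of assembly TAIR10.1. The deposited tables carry no coordinates, and the submitters' notes name the build TAIR10. JAZ8 encodes a JAZ repressor (chr1:10596102-10596351, plus strand) and NATA1 an acetyltransferase that makes acetylornithine (chr2:16297860-16298109, plus strand). PDF1.2a encodes a plant defensin (chr5:17907639-17907888, minus strand), CRK11 a cysteine-rich receptor-like kinase (chr4:12143859-12144108, minus strand) and WRKY30 a stress transcription factor (chr5:8154711-8154960, minus strand). They are shown for the motifs of 3 families of factors known in wound and defence responses: the G-box bound by MYC factors (CACGTG, and its variant AACGTG, which differ in a base and so do not match at the same place), the GCC-box bound by ERF factors (GCCGCC) and the W-box bound by WRKY factors (TTGACC or TTGACT). Capitals mark matches on either strand, for the motifs each promoter was picked to show.
JAZ8: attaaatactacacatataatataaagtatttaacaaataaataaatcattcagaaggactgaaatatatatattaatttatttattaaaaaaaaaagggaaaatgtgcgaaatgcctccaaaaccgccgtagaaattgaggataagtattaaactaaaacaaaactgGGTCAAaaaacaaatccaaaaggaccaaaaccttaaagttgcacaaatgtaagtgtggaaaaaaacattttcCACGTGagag
NATA1: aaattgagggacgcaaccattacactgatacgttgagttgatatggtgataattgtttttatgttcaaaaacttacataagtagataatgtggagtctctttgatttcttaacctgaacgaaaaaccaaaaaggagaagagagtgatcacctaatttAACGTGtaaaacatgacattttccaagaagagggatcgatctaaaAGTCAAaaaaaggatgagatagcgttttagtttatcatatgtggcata
PDF1.2a: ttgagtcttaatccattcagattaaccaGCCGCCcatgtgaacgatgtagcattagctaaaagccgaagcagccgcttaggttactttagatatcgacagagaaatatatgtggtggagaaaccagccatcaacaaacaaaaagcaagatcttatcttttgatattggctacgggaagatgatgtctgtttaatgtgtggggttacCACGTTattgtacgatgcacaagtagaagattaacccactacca
CRK11: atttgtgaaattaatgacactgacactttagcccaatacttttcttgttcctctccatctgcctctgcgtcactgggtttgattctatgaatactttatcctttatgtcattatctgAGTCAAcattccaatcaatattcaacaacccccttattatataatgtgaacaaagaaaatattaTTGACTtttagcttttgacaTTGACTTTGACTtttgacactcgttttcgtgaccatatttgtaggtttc
WRKY30: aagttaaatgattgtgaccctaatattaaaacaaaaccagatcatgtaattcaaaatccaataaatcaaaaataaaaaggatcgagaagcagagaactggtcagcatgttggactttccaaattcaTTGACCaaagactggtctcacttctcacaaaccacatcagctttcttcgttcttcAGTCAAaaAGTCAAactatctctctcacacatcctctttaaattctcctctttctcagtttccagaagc

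Among the 19940 tested genes with such a promoter, 28% held a W-box, 7.38% a G-box, 7.37% the AACGTG variant and 2% a GCC-box. Of the 1348 promoters of genes higher by a fold of 2 or more and called against both control pairs, 37.8% held a W-box, 11.2% a G-box, 15.6% the variant and 2.6% a GCC-box. Of the 367 promoters of genes lower by the same rule, the shares were 29.4%, 6.27%, 8.17% and 0.817%. W-box shares of the lists below were highest for cysteine-rich receptor-like kinases (12 of 16 promoters), tryptophan synthesis (7 of 10) and detoxification (11 of 16). Shares under the 28% of all genes included salicylic acid perception and output (2 of 16) and jasmonate breakdown and conversion (1 of 12). The jasmonate receptor, activators and other repressors had a W-box in 0 of 10. A G-box stood in 5 of 13 promoters of JAZ genes and 5 of 12 of stress ERF genes, and also in 6 of 14 promoters of iron genes and 5 of 13 of clock genes. A match describes these letters in this window and is not a test of binding.

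Jasmonate synthesis genes rose together. Of 17 genes 15 were called higher, against 26.5% of all tested genes, and none lower. All 15 were called against both control pairs, against 16.9% of all tested genes, with a median of 2.27 (2.95 against replicates 1 and 2, 1.80 against replicates 3 and 4, or 1.64 there with DAD1, at 0 counts in them, set to its lower bound). LOX2, the chloroplast lipoxygenase that opens the pathway in wounded leaves, had 10709, 10178, 10706 and 12309 CPM under mites, against 462, 214, 1278 and 1805 CPM in controls. All mite libraries lay far above all controls, and the change was 3.55 ± 0.40 (adjusted p = 5.8e-08). LOX2 alone took 1.11% of all counts under mites and 0.0935% in controls, and in FPKM, which is scaled per gene length, it had rank 14 under mites and rank 258 in controls.

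Genes of the later steps also rose. AOC1, an allene oxide cyclase, had 502, 410.5, 520.5 and 618 CPM under mites, against 14.3, 10.3, 26.2 and 38.9 CPM in controls, a change of 4.51 ± 0.32. AOC1 and AOC2 are close copies and may share reads. LOX3 rose by 4.11, LOX4 by 3.94, AOS, the allene oxide synthase, by 2.49, and OPR3, the reductase of the peroxisomal branch, by 2.23. JAR1, which conjugates jasmonate to isoleucine, rose less, by 1.03 ± 0.16. The members that did not pass were the beta-oxidation enzyme gene ACX5, with 0.07 ± 0.08, and the lipase gene DAD1. DAD1 stood at 9 counts over the mite libraries and 1 over the controls, a ratio of 9.34 (95% exact interval 1.29 to 409, counting error only). The 17 genes together took 1.43% to 1.74% of counts under mites, against 0.0723% to 0.109% in control replicates 1 and 2 and 0.237% to 0.311% in replicates 3 and 4.

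All 13 JAZ repressor genes were called higher, 11 of them against both pairs. JAZ10, an early target of MYC2, had 114, 82.8, 106 and 109.5 CPM under mites, against 4.5, 1.33, 7.03 and 9.81 CPM in controls, a change of 4.18 ± 0.37. JAZ6, with 336, 302, 368 and 366 CPM under mites, against 71.7, 58.7, 88.1 and 87.6 CPM in controls, had the smallest adjusted p of the family (9.5e-11) and changed by 2.16 ± 0.16. JAZ8, whose promoter is shown above, had 5.18, 4.57, 6.37 and 5.03 CPM under mites, against 0.882, 0.0952, 0.469 and 1.41 CPM in controls. JAZ4 (1.09 ± 0.41) was not called against replicates 3 and 4, and JAZ11 (0.43 ± 0.18) was called against neither pair alone. JAZ4 lost its call without mite replicate 2 (adjusted p = 0.0505), mite replicate 4 (0.0975) or control replicate 2 (0.117). JAZ11 lost it without any of the 4 mite libraries (adjusted p = 0.0641 to 0.0775) and without control replicate 2 (0.133), 3 (0.0949) or 4 (0.0809).

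The receptor, activators and other repressors had smaller folds: 7 of 10 were called higher, 6 against both pairs, and 1 lower, with a median of 0.49. MYC2, the lead activator, had 436, 388, 451 and 477 CPM under mites, against 68.8, 40.0, 131 and 142 CPM in controls, a change of 2.2 ± 0.25, while MYC3 rose by 0.83 ± 0.08 and MYC4 by 0.26 ± 0.09, with no call against replicates 1 and 2 (0.23). JAM1, a bHLH repressor that competes with MYC2, rose by 1.91 ± 0.17. The receptor gene COI1 was the only member of this list called lower, at -0.20 ± 0.07, and it was not called against replicates 3 and 4. COI1 also lost its call without mite replicate 3 (adjusted p = 0.065) or 4 (0.0578), and MYC4 without mite replicate 3 (0.0548). The corepressor TPL (-0.02 ± 0.05) and the mediator subunit MED25 (0.21 ± 0.10) were not called, although MED25 passed without mite replicate 3 (adjusted p = 0.0455) or 4 (0.0418).

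Genes that break down or convert jasmonate were called higher in 12 of 12 cases, each against both pairs, with a median of 3.93. JRG21, a jasmonate oxidase also known as JOX3, had 223, 167, 215 and 241 CPM under mites, against 0.0929, 1, 10.2 and 10.3 CPM in controls. The controls split by pair, with replicates 1 and 2 below replicates 3 and 4, and the change was 5.29 ± 0.49. CYP94C1, which oxidises the conjugate to its carboxylated form, rose by 3.47 ± 0.29, and JMT, which makes methyl jasmonate, by 2.47 ± 0.21. The amidohydrolase gene ILL5 had 274 counts over the mite libraries and 0 over the controls, at least 94.8-fold higher with a floor of 3 counts over the group.

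The MYC branch of output rose in all 11 genes, 10 of them against both pairs, with a median of 4.21. NATA1 had 1155, 1029, 978 and 1393 CPM under mites, against 0.464, 0.428, 24 and 22.9 CPM in controls. Its change was 11.29 against replicates 1 and 2 and 5.59 against replicates 3 and 4, and it was called against each. In FPKM it had rank 66 under mites and rank 7587 in controls. VSP2, a vegetative storage protein and acid phosphatase, had 3618, 3669, 3708 and 4514 CPM under mites, against 145, 42.5, 475 and 638 CPM in controls and changed by 3.58 ± 0.51, and VSP1, its close copy, by 4.99 ± 0.61. MBP1, a myrosinase-binding protein gene, had 1161, 1269, 1291 and 1378 CPM under mites, against 25.5, 13, 51.5 and 86.1 CPM in controls, a change of 4.86 ± 0.36. TAT3, a tyrosine aminotransferase, had 2377, 1605, 1542 and 1957 CPM under mites, against 5.11, 9.14, 257 and 292 CPM in controls, and its control pairs did not overlap. ANAC055, a NAC factor downstream of MYC2, was the member not called against replicates 3 and 4 (0.39). It also lost its call without mite replicate 1 (adjusted p = 0.0529), mite replicate 4 (0.136), control replicate 1 (0.112) or control replicate 2 (0.0976).

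**Figure D2:**
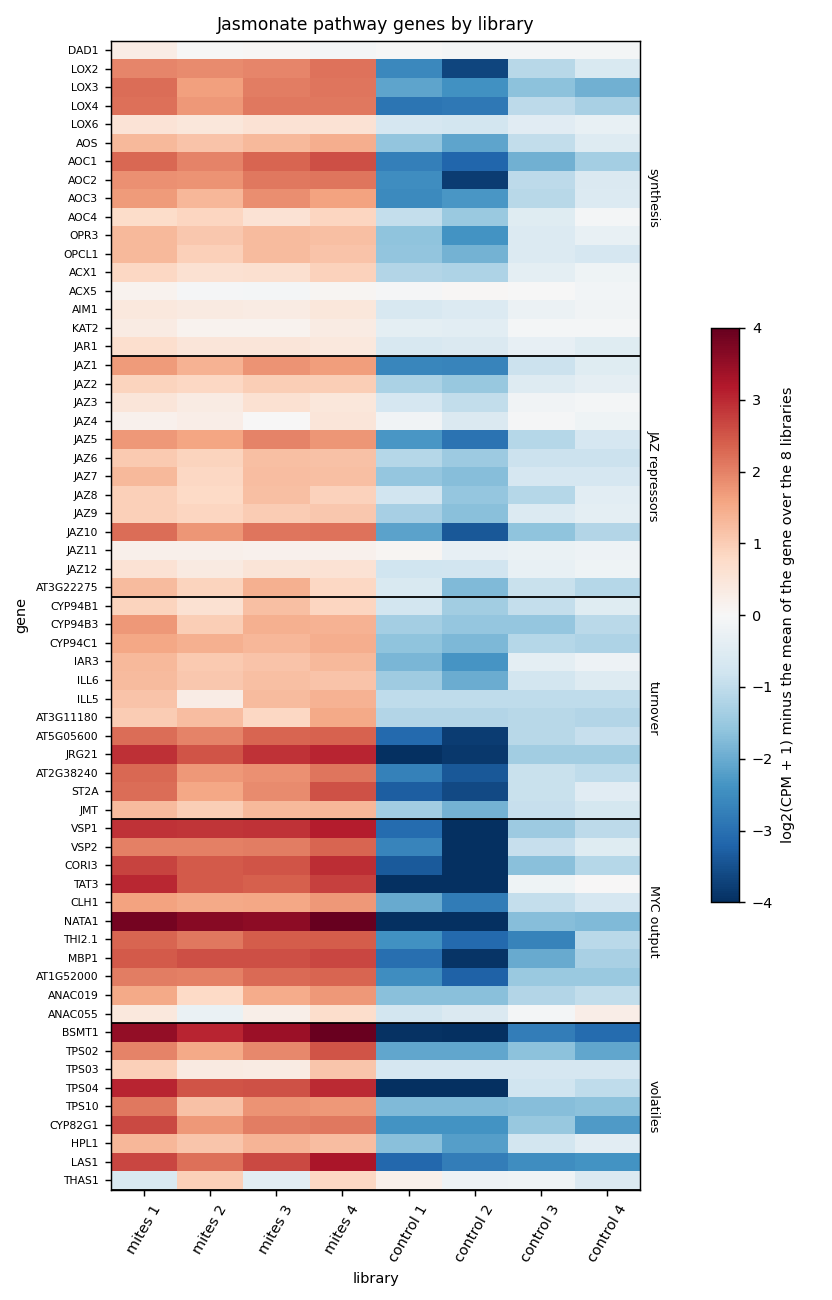
Log2(CPM + 1) of each jasmonate synthesis, JAZ, turnover, MYC output and volatile gene minus its mean over the 8 libraries, with 1 row per gene and 1 column per library, mite libraries on the left. Control replicates 1 and 2 are the lowest columns for most genes and control replicates 3 and 4 lie between them and the mite libraries.

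The ERF branch, which jasmonate and ethylene switch on together, also rose, in all 8 tested members, 6 of them against both pairs. PDF1.2a had 30.2, 43, 92.8 and 45 CPM under mites, against 0.232, 0, 2.02 and 1.22 CPM in controls, a change of 5.91 ± 0.78. The near-identical PDF1.2b and PDF1.2c may share reads with it. The defensin PDF1.1 was not tested. The chitinase genes PR4 (1.74 ± 0.28) and CHI-B (1.22 ± 0.29) rose by less, CHI-B without a call against replicates 3 and 4 (0.60), and the activator gene ORA59 by 1.97 ± 0.42. Ethylene synthesis and signalling genes were mixed, with 10 of 17 higher, 8 against both pairs, and 4 lower, each against both, at a median of 0.28. EIN3, a transcription factor of the pathway, rose by 0.48 ± 0.06 and ACS2, which encodes a synthase of its precursor, by 2.51 ± 0.64. The related synthase gene ACS11 changed by -1.28 ± 0.32 and EBF2, which encodes an F-box protein that removes EIN3, by -0.31 ± 0.06. The relatives of EBF2 and EIN3 went the other way. With all controls the mite to control ratio was 1.37 for EBF1 and 0.859 for EIL1, whose calls are not given here.

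Volatile and triterpene genes had a list median of 7.24 over 9 tested genes, or 6.36 with TPS03, at 0 counts in controls, set to its lower bound. Of the 9 genes 8 were called higher against both pairs. BSMT1, which makes methyl salicylate, had 199.9, 144, 188 and 274 CPM under mites, against 0.139, 0, 1.59 and 1.08 CPM in controls, a change of 8.15 ± 0.45. TPS04, the geranyllinalool synthase at the start of the homoterpene TMTT, had 439, 299.8, 307 and 421 CPM under mites, against 1.16, 1.09, 29.2 and 25.1 CPM in controls. CYP82G1, which completes TMTT, rose by 6.36 ± 0.47 and LAS1, a lanosterol synthase, by 7.24 ± 0.57. TPS10, a linalool synthase gene, had 843 counts over the mite libraries and 3 over the controls, a ratio of 292 (95% exact interval 99.4 to 1417, counting error only). TPS03, a farnesene synthase gene, had 138 counts over the mite libraries and 0 over the controls, at least 47.7-fold higher with the same floor. The triterpene gene THAS1 did not pass, at 0.104, 2.29, 0.265 and 2.01 CPM under mites, against 0.975, 0.476, 0.516 and 0.141 CPM in controls, and its groups overlapped. TPS21 and MRN1 were not tested.

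Salicylic acid genes were higher by smaller folds. Of 12 genes for salicylic and pipecolic acid synthesis and their regulators, 10 were called higher, all 10 against both pairs, with a median of 1.43 that was 2.49 against replicates 1 and 2 and 0.90 against replicates 3 and 4. ICS1, the isochorismate synthase, had 37.6, 30.1, 30.0 and 38.4 CPM under mites, against 9.8, 10.6, 25.2 and 22.3 CPM in controls, a change of 1.00 ± 0.20. EDS5, the transporter that exports its product, rose by 1.91 ± 0.28, PBS3, which conjugates it, by 1.87 ± 0.32, and the regulator SARD1 by 1.97 ± 0.35. The 2 genes not called make pipecolic acid signals: ALD1 had 6.63, 5.37, 3.45 and 6.16 CPM under mites, against 0, 0.381, 10.6 and 5.91 CPM in controls, and FMO1 had 2.28, 1.69, 0.106 and 1.68 CPM under mites, against 0, 0.0476, 4.78 and 2.81 CPM in controls. In both, the mite libraries lay above control replicates 1 and 2 and below replicate 3.

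The call on salicylic acid perception and output genes differed by control pair. Of 16 genes 13 were called higher, 15 against replicates 1 and 2 and 8 against replicates 3 and 4. PR2, a beta-1,3-glucanase, had 631, 386, 343 and 428 CPM under mites, against 2.27, 9.33, 50.3 and 41.6 CPM in controls, and its change of 4.11 ± 0.51 held against both pairs (6.27 and 3.27). PR1, the usual marker, had 73.9, 32.4, 10.6 and 23.2 CPM under mites, against 0.232, 5.67, 18.3 and 15.7 CPM in controls. Mite replicate 3 lay below control replicates 3 and 4, so the groups overlapped, and PR1 was called against replicates 1 and 2 (3.57) and not against replicates 3 and 4 (1.03). UGT76B1, a glucosyltransferase acting on salicylic acid, had 19.8, 13.3, 12.2 and 20.2 CPM under mites, against 0.0464, 0.286, 9.56 and 10.7 CPM in controls, and the transcription factor gene WRKY70 had 191, 122, 118 and 135 CPM under mites, against 44, 65, 128 and 105 CPM in controls. Both were called against replicates 1 and 2 and not against replicates 3 and 4. NPR1, the receptor and coactivator, rose by 0.57 ± 0.10 and was called against both pairs, and its relative NPR4 did not pass (-0.17 ± 0.11). Single libraries decided some of these calls. PR1 lost its call without mite replicate 1, with a change of 1.16 (adjusted p = 0.0859), and NPR4 passed without it at -0.30 (0.011). UGT76B1 lost its call without mite replicate 1 (adjusted p = 0.0519), mite replicate 4 (0.0559), control replicate 1 (0.0595) or control replicate 2 (0.0691), and in DESeq2 (0.0914).

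Genes of damage perception and early signalling rose by small folds. Of 20 tested genes 17 were called higher and none lower, 15 of them against both pairs, with a median of 0.93. RBOHF, an NADPH oxidase, had 37, 32.6, 37.8 and 44.4 CPM under mites, against 14.2, 17.3, 16.3 and 17.59 CPM in controls, with 1.22 ± 0.10, and RBOHD rose by 1.49 ± 0.14. DORN1, a receptor for extracellular ATP, rose by 1.46 ± 0.18 and the glutamate receptor-like channel GLR3.3, which carries wound signals between leaves, by 0.94 ± 0.10. The precursor gene PROPEP1 (-0.43 ± 0.24) and the channel gene GLR3.6 (-0.11 ± 0.14) did not pass, and PROPEP2 was not tested.

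Of 16 cysteine-rich receptor-like kinase genes 14 rose, 12 against both pairs. CRK13 had 32.1, 24, 27.9 and 31 CPM under mites, against 0.371, 0.666, 2.16 and 1.59 CPM in controls, a change of 4.58 ± 0.32. CRK11, whose promoter is printed above with its 4 W-box matches in capitals, had 12.1, 11.5, 9.12 and 10.5 CPM under mites, against 5.39, 3.62, 7.5 and 5.11 CPM in controls. CRK41 did not pass (0.07 ± 0.16). Of 18 stress WRKY genes 15 rose, 13 against both pairs: WRKY28 by 2.95 ± 0.39, WRKY46 by 2.23 ± 0.35 and WRKY33, a regulator of camalexin, by 1.66 ± 0.26. WRKY30, whose promoter is also printed above, had 2.69, 1.59, 2.49 and 1.72 CPM under mites, against 0.464, 0.381, 1.08 and 0.469 CPM in controls. Of 12 stress ERF genes 10 rose, 7 against both pairs, among them ERF13 (3.37 ± 0.36). Of 13 calmodulin-like and calmodulin-binding genes 8 rose and 1 fell, all against both pairs, with a median of 2.17. CML39, a calmodulin-like calcium sensor gene, had 21.3, 18.8, 28.1 and 35.3 CPM under mites, against 0, 0, 0.0938 and 0.188 CPM in controls. CML24, a touch-inducible sensor gene, was lower, at 25.2, 24.9, 31 and 27.4 CPM under mites, against 57.6, 58.6, 38.2 and 40.4 CPM in controls.

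Indole glucosinolates are tryptophan-derived defence compounds of the cabbage order. In tryptophan synthesis 8 of 10 genes were higher and 2 lower, all of them against both pairs. PAT1, an early enzyme gene of the route, had 263, 221, 237 and 276 CPM under mites, against 48.7, 43.8, 81.6 and 82.7 CPM in controls, a change of 1.96 ± 0.16, and ASA1 and TSB1 rose by 1.66 ± 0.21 and 1.58 ± 0.16. The genes called lower, PAI1 (-0.90 ± 0.10) and ASA2 (-0.35 ± 0.06), are alternative copies of enzymes of the route. Of 16 indole glucosinolate genes 13 rose, 12 against both pairs. CYP79B2, which converts tryptophan to its oxime, had 308, 285, 309 and 338 CPM under mites, against 46.7, 29.5, 96.2 and 96.5 CPM in controls and changed by 2.21 ± 0.25, and CYP81F4, which modifies the indole ring, by 2.86 ± 0.38. CYP81F2, its relative tied to defence against aphids and fungi, had 2.69, 2.04, 2.76 and 1.22 CPM under mites, against 1.44, 1.76, 2.44 and 1.13 CPM in controls, where the groups overlapped and the change of 0.35 ± 0.34 did not pass. The activator of the route MYB34 had 107, 102, 110.0 and 113 CPM under mites, against 30.3, 30.7, 33 and 36.9 CPM in controls, and MYB51 did not pass (0.09 ± 0.19).

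Of 16 aliphatic glucosinolate genes 9 were higher, 4 against both pairs, at a median of 0.40. That median was 0.72 against replicates 1 and 2, with 13 called higher and none lower, and 0.12 against replicates 3 and 4, with 4 called higher and 2 lower, IPMI1 and IPMI2. MYB28, an activator of these genes, was lower, at 44.5, 53.3, 47.6 and 40.5 CPM under mites, against 99.6, 98.8, 81 and 84.5 CPM in controls. Its relatives MYB76 and MYB29 had mite to control ratios of 2.26 and 1.02 with all controls. Among 5 tested MYB regulators of glucosinolates 2 rose and 1 fell, each against both pairs. BCAT4, at the entry of methionine chain elongation, rose by 0.89 ± 0.20. Of 11 sulfur assimilation genes, which feed both classes, 10 rose, 9 against both pairs: SDI1, a sulfur deficiency marker known to restrain aliphatic synthesis, had 29.9, 41, 43.5 and 38.7 CPM under mites, against 2.6, 2.81, 6.61 and 4.55 CPM in controls, and APR2 was lower at -0.31 ± 0.09 but not called against replicates 3 and 4 (-0.24). Of 12 breakdown genes 9 rose, 8 against both pairs. BGLU18, a beta-glucosidase of wound-induced ER bodies, had 11970, 12834, 12416 and 13154 CPM under mites, against 549, 253, 1246 and 1792 CPM in controls, a change of 3.71 ± 0.35, and it took 1.27% of counts under mites and 0.0955% in controls. NSP1, which steers breakdown towards nitriles, rose by 2.28 ± 0.24.

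Camalexin is the other main indole defence compound of the species. Of 5 tested genes 2 were called higher with all controls, 5 against replicates 1 and 2 and 1 against replicates 3 and 4. PAD3, the gene of the last enzyme, had 16.9, 21.9, 12 and 15.6 CPM under mites, against 0.325, 1.09, 22.4 and 15.6 CPM in controls. CYP71A13, which acts earlier, had 10.8, 20.4, 6.68 and 14.5 CPM under mites, against 0.0464, 0.952, 34.5 and 20.1 CPM in controls. In both genes all mite libraries lay above control replicates 1 and 2, and neither gene passed with all controls (0.76 ± 0.62 and -0.08 ± 0.72) or against replicates 3 and 4 (-0.20 and -1.07).

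**Figure D3:**
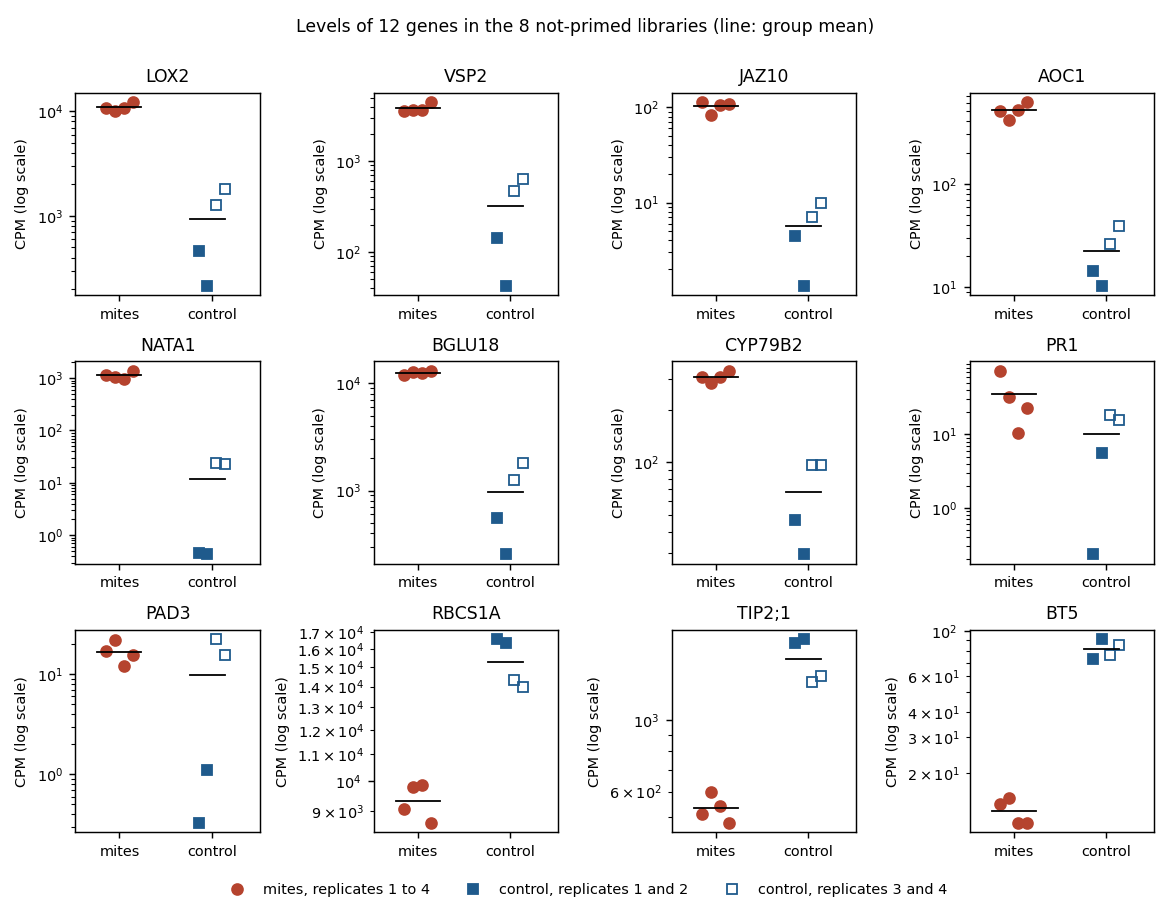
CPM of 12 genes in each library on log axes, mites on the left and controls on the right, with control replicates 1 and 2 filled and 3 and 4 open, and a line at each group's mean. In LOX2, NATA1 and BGLU18 all mite libraries lie above all controls, in PR1 and PAD3 they overlap control replicates 3 and 4, and in RBCS1A, TIP2;1 and BT5 they lie below all controls.

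Protease inhibitors are known to act on the digestion of feeders. Of 9 tested genes 6 rose, 4 of them against both pairs. ATTI1, a trypsin inhibitor, had 161, 128, 139 and 228 CPM under mites, against 1.25, 3.43, 9.33 and 8.49 CPM in controls, a change of 4.87 ± 0.32. KTI1, a Kunitz inhibitor, was at 2.85, 3.08, 2.39 and 3.06 CPM under mites, against 0.557, 1.24, 6.7 and 7.7 CPM in controls, which is higher than control replicates 1 and 2 and lower than replicates 3 and 4, and it was called in opposite directions against the pairs (1.66 and -1.35). Of 7 genes tied to mite resistance in earlier studies 5 rose, 4 against both pairs, among them HNL, a hydroxynitrile lyase (2.53 ± 0.22). The 2 not called with all controls were KTI1 and CYP81F2.

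Of 16 flavonoid and anthocyanin genes 11 rose, each against both pairs, and 2 fell, 1 against both. All 7 late anthocyanin genes rose and were called against both pairs: DFR, the reductase that commits to the branch, had 123, 132, 94 and 117 CPM under mites, against 17.7, 6.9, 41.6 and 49.7 CPM in controls, a change of 2.01 ± 0.31. The regulator genes MYB113 (3.44 ± 0.49) and TT8 (1.83 ± 0.32) also rose. The early enzymes F3H (-0.14 ± 0.10) and CHI (-0.10 ± 0.10) did not pass, and FLS1, which diverts substrate to flavonols, was lower at 25.8, 21.5, 20.9 and 21.6 CPM under mites, against 54.5, 62.1, 54.7 and 56.7 CPM in controls. Of 16 phenylpropanoid and lignin genes 9 fell, 7 against both pairs, and 3 rose, each against both: HCT changed by -0.87 ± 0.05 and CAD4 by -1.01 ± 0.07, and CCR2, a reductase gene tied to pathogen responses, by 3.96 ± 0.35.

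Redox and dehydration genes were mixed. Of 13 redox genes 8 rose, 6 against both pairs, and 4 fell, 3 against both. DHAR1, a dehydroascorbate reductase, had 2323, 2236, 2056 and 2808 CPM under mites, against 203, 118, 389 and 601 CPM in controls, a change of 2.85 ± 0.31. CAT2, the leaf peroxisome catalase, had 1650, 1692, 1661 and 1603 CPM under mites, against 2896, 3156, 2722 and 2678 CPM in controls, a change of -0.79 ± 0.06, and CAT3 changed by 1.19 ± 0.11. Of 16 tested detoxification genes, glutathione transferases and glycosyltransferases, 5 rose, each against both pairs, and 2 fell, 1 against both, and GSTU4 changed by 3.41 ± 0.50. Their shares of 31.25% higher and 12.5% lower stand beside 26.5% and 24.9% of all tested genes. Of 13 tested genes of chlorophyll breakdown and senescence 7 rose, 5 against both pairs, and 2 fell, 1 against both: PPH, a pheophytinase gene, changed by 1.25 ± 0.13 and SAG29, a sugar transporter gene of senescing leaves, by -1.87 ± 0.31. Of 23 abscisic acid and dehydration genes 10 rose, each against both pairs and led by KIN1 (5.21 ± 0.34), and 5 fell, 3 against both, among them the receptor gene PYL5 (-1.07 ± 0.16). NCED3, the rate-limiting enzyme of the hormone, rose by 1.67 ± 0.30.

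Photosynthesis genes fell by small amounts. All 17 rubisco and Calvin cycle genes were lower, against 24.9% of all tested genes, and each was called against both pairs, against 17.62% of all tested genes, with a median of -0.51 (-0.65 against replicates 1 and 2, -0.39 against replicates 3 and 4). RBCS1A had 9077, 9798, 9858 and 8616 CPM under mites, against 16568, 16344, 14311 and 13958 CPM in controls, a change of -0.71 ± 0.07. RBCS1B had 916, 1178, 1135 and 869 CPM under mites, against 3001, 3044, 1964 and 1979 CPM in controls (-1.28 ± 0.12), and the rubisco small subunit genes may share reads. The 17 genes took 4.58% to 5.12% of counts under mites, against 7.56% to 7.66% in control replicates 1 and 2 and 6.57% to 6.74% in replicates 3 and 4. In bulk rosettes, fewer mesophyll cells and less RNA per cell cannot be told apart.

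Of 27 light harvesting and photosystem genes 24 were lower, 15 against both pairs, by a median of -0.19. LHCB1.3 had 10848, 11429, 12096 and 11583 CPM under mites, against 15217, 14020, 13322 and 12904 CPM in controls (-0.27 ± 0.06), and LHCB3 did not pass (-0.02 ± 0.05). Of 20 chlorophyll synthesis genes 16 fell, 14 against both pairs, and 2 rose, 1 against both: GUN4, an activator of magnesium chelatase, changed by -0.79 ± 0.06 and CAO, which makes chlorophyll b, by -0.67 ± 0.05. GLK1, a regulator of chloroplast genes, rose by 0.40 ± 0.08. Chloroplast and mitochondrial transcripts took 0.0316% to 0.0374% of all counts under mites and 0.0398% to 0.0543% in controls, and their part in these values was not tested.

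Of 18 nitrogen assimilation and BTB-TAZ genes 11 fell, each of them called against both pairs, and 6 rose, 4 against both. NIR1, nitrite reductase, had 143, 153, 169.8 and 126 CPM under mites, against 383, 426, 353 and 309.7 CPM in controls (-1.31 ± 0.10), and GLN2, the chloroplast glutamine synthetase, fell to 1190, 1229, 1288 and 1162 CPM under mites, against 2174, 2324, 1924 and 1895 CPM in controls (-0.77 ± 0.06). ASN1, an asparagine synthetase of starved and dark leaves, had 62.5, 68.7, 82.2 and 92 CPM under mites, against 6.04, 5.05, 12.8 and 25.1 CPM in controls (2.64 ± 0.33), and the cytosolic GLN1;1 rose by 1.19 ± 0.16. BT2 and BT5, which encode BTB and TAZ domain proteins, were among the 15 lowest genes by the naming rule: BT2 had 1.81, 2.24, 3.08 and 0.797 CPM under mites, against 9.24, 18.5, 14.8 and 18.6 CPM in controls (-2.98 ± 0.29) and BT5 had 14.1, 15, 11.3 and 11.3 CPM under mites, against 72.6, 91.3, 76.3 and 85.2 CPM in controls (-2.65 ± 0.15). Of 20 starch and sugar genes 14 rose, 11 against both pairs, including the exporter SWEET12 (1.99 ± 0.26) and the phosphatase SEX4 (1.06 ± 0.12), and 2 fell, each against both.

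**Figure D4:**
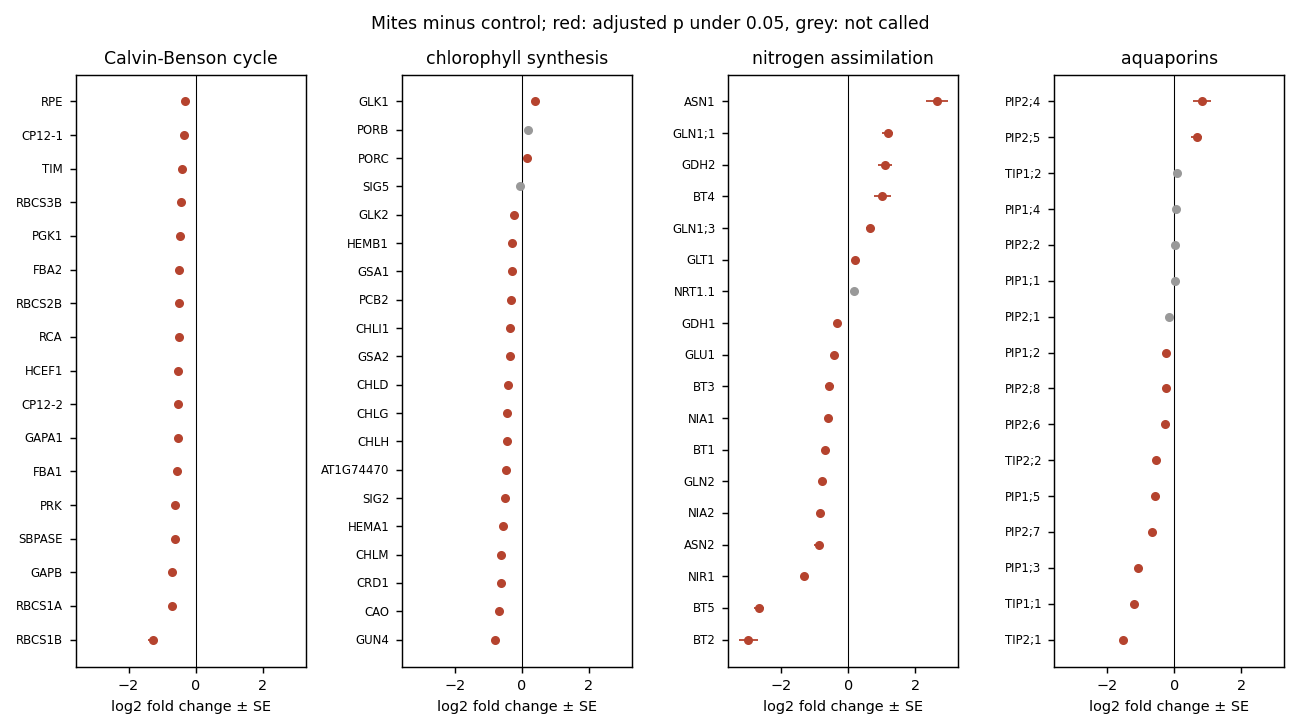
Log2 fold change, mites minus control, with its SE, for genes of the Calvin cycle, chlorophyll synthesis, nitrogen assimilation and aquaporins, in red where called and grey where not. All Calvin cycle genes lie left of 0, while nitrogen genes run from ASN1 on the right to BT2 on the left.

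Of 25 tested auxin, cytokinin, brassinosteroid and gibberellin genes 16 fell, 11 against both pairs, and 2 rose, 1 against both. All 7 type-A response regulators, which cytokinin induces, were lower, 4 of them against both pairs: ARR15 had 5.28, 4.67, 4.35 and 5.41 CPM under mites, against 17.64, 18.9, 13.2 and 13 CPM in controls (-1.66 ± 0.15). GA3OX1, the last step to active gibberellin, fell to 2.23, 2.73, 2.49 and 2.31 CPM under mites, against 5.39, 8.33, 6.66 and 7.41 CPM in controls (-1.51 ± 0.20). GH3.3, which conjugates auxin, rose by 1.69 ± 0.22. Of 22 expansins and xyloglucan endotransglucosylases 10 fell, 8 against both pairs, and 5 rose, each against both, with a median of -0.26. XTH17 had 0.8289, 2.19, 1.17 and 0.922 CPM under mites, against 9.47, 10.4, 6.75 and 7.83 CPM in controls (-2.75 ± 0.37), and its relative XTH18 had 7.72, 9.49, 12 and 11.8 CPM under mites, against 0.697, 1.33, 1.59 and 1.78 CPM in controls (2.92 ± 0.30). Of 18 cell cycle and replication genes 1 rose and 1 fell, neither against both pairs.

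Of 16 aquaporin genes 9 fell, 8 against both pairs, and 2 rose, 1 against both. TIP2;1, a vacuolar water and ammonia channel, had 511, 597, 539.8 and 479 CPM under mites, against 1731, 1777, 1306 and 1365 CPM in controls (-1.54 ± 0.10), TIP1;1 changed by -1.21 ± 0.09 and PIP1;3, a plasma membrane channel gene, by -1.07 ± 0.08, and TIP1;2 did not pass (0.08 ± 0.07). Of 16 tested wax and cutin genes 5 rose and 7 fell, 4 in each direction against both pairs. Against replicates 1 and 2 alone 9 of them were called lower, and against replicates 3 and 4 alone 4. CER4, an alcohol-forming reductase, was the lowest gene by the naming rule, at 0.984, 0.696, 0.849 and 0.629 CPM under mites, against 9.19, 12.6, 6.14 and 6.1 CPM in controls (-3.43 ± 0.42). All 8 chaperone and folding enzyme genes of the endoplasmic reticulum rose, 7 against both pairs, with PDIL1-1 at 1.296 ± 0.15. Of 7 heat shock protein genes 5 fell, 4 against both pairs, with HSP70 at -1.37 ± 0.12. Both are parts of a list of 19 tested genes, in which 11 rose, 9 against both pairs, and 6 fell, 5 against both. The heat shock factor genes HSFA2 and HSFB2A, outside these parts, had mite to control ratios of 2.08 and 1.68. Of 13 clock genes 3 rose (23.1%), 2 against both pairs, and 4 fell (30.8%), each against both, with a median of 0.01. These shares were near those of all tested genes, 26.5% and 24.9%. The morning genes LHY and CCA1 changed by -0.88 ± 0.05 and -0.68 ± 0.06. The evening genes TOC1 and LUX went in opposite directions, by 0.38 ± 0.10 and by -1.415, the lowest value of the list. Sampling hours are not in the labels, and their part was not tested. Of 14 autophagy genes 9 rose, 3 against both pairs (ATG8F 0.68 ± 0.08), and 1 fell, not against both. Of 14 iron genes 2 rose (14.3%), 1 against both pairs, and 4 fell (28.6%), 3 against both (NAS4 -1.32 ± 0.16). The lower share was near the 24.9% of all tested genes, and the higher share was under their 26.5%.

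**Figure D5:**
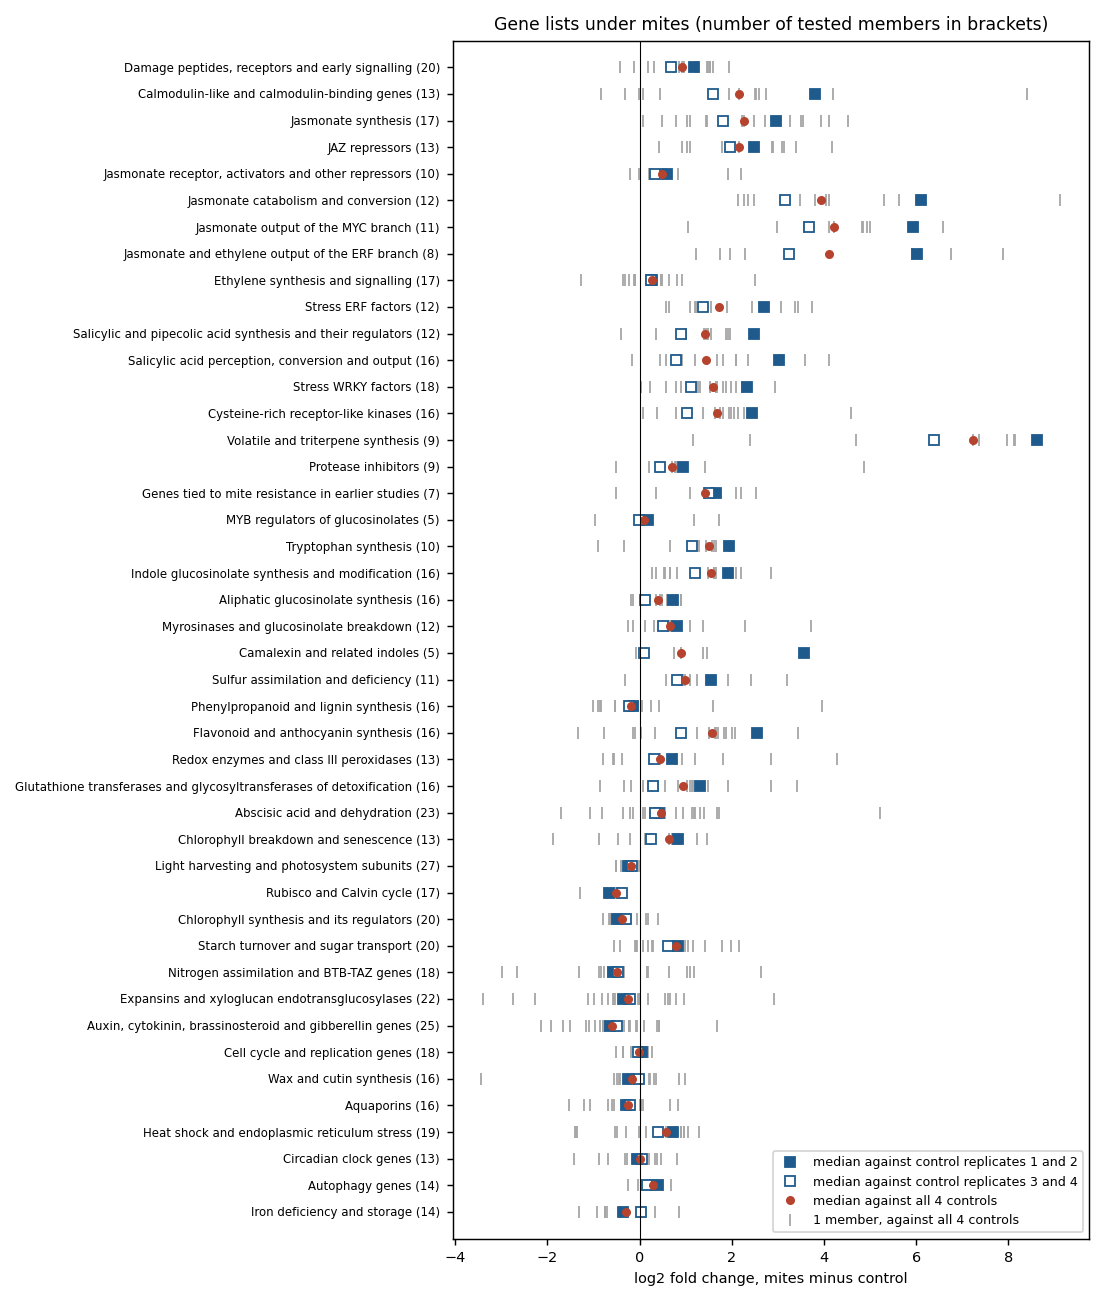
Median log2 fold change of each gene list against all controls (circles), control replicates 1 and 2 (filled squares) and control replicates 3 and 4 (open squares), with a tick per member. Most defence lists lie right of 0 and further right against replicates 1 and 2, camalexin is near 0 against replicates 3 and 4, and photosynthesis, nitrogen and growth hormone lists lie left of 0.

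Outside these lists, the naming rule gave genes with less annotation. AT5G17540, an acyltransferase of the HXXXD type, had 435 counts over the mite libraries and 3 over the controls, a ratio of 150 (95% exact interval 51.1 to 732). AT3G49340, a cysteine proteinase, had 7.3, 5.92, 3.87 and 6.62 CPM under mites, against 0, 0, 0.234 and 0 CPM in controls. AT3G27415, an uncharacterised protein gene, had 8.96, 5.77, 6.84 and 9.01 CPM under mites, against 0, 0, 0.0938 and 0.141 CPM in controls, and CSLA01, a cellulose synthase-like gene, had 435, 414, 518 and 533 CPM under mites, against 1.3, 0.238, 7.74 and 17.45 CPM in controls. These genes were named by a rule that asks for groups without overlap, so their separation was set by the choice. AT2G43530, a knottin of the scorpion toxin-like superfamily, had 725, 694, 706 and 974 CPM under mites, against 41.2, 18.9, 83.6 and 113 CPM in controls with rank 15 by FPKM under mites and rank 316 in controls. Among the lowest, AT1G62510, a lipid-transfer family protein, had 12.1, 18.7, 29.8 and 31 CPM under mites, against 192, 249.8, 188 and 199.6 CPM in controls (-3.17 ± 0.22), and the thionin gene THI2.2 had 6.58, 9.2, 8.75 and 5.37 CPM under mites, against 60.3, 65.5, 37.3 and 36.6 CPM in controls, and its relative THI2.1 changed by 4.93 ± 0.35. Genes called against a single control pair included PHI-1, a phosphate-responsive family gene, called lower against replicates 1 and 2 only, at 3.63, 2.78, 2.76 and 3.94 CPM under mites, against 10.9, 9.9, 3.98 and 4.18 CPM in controls. LTP4, a lipid transfer protein gene, was called lower against replicates 3 and 4 only, at 3.16, 1.29, 1.06 and 0.545 CPM under mites, against 0.0464, 1.48, 3.14 and 17.2 CPM in controls, with overlapping groups. SPX1, a phosphate sensor gene, was called higher against replicates 3 and 4 and not against replicates 1 and 2 (0.99 and 0.38). With all controls SPX1 was called, but not without mite replicate 3 (adjusted p = 0.0846), control replicate 3 (0.0513) or control replicate 4 (0.0605). LTP4 was not called with all controls but passed without control replicate 1 (adjusted p = 0.0288).

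Cell type markers gave a check of the tissue. Mesophyll markers took 3.28% to 3.65% of counts under mites and 4.4% to 4.99% in controls, and root markers 0.00154% to 0.00222% under mites and 0.00159% to 0.00223% in controls, with the root hair genes RHD6 and EXP7 at 0. Only 1 of the 6 root markers was tested, PHO1, which took 0.00181% of counts under mites and 0.0018% in controls. Of 5 mesophyll markers 3 were lower, each against both pairs, RBCS1A, RCA and CA1. The others, LHCB3 and CAB3, were not called, with mite to control ratios of 0.985 and 0.921. RBCS1A and RCA are also in the Calvin cycle list, so they are not a separate check. Counts of markers stand beside 26.5% higher and 24.9% lower of all tested genes. Of 4 phloem companion cell markers 3 were higher, 2 against both pairs, SUC2 by 0.60 ± 0.08, and of 5 trichome markers 2 were higher, both against both pairs, GL2 by 0.74 ± 0.10. Of 6 guard cell markers 1 was higher and 2 lower, 1 in each direction against both pairs. Of 5 epidermis markers 1 was higher and 2 lower, with 1 of the lower ones called against both pairs, and neither of 2 tested meristem markers was called. Of 4 tested flower and seed markers 1 was higher: the seed storage gene SESA1 had 98 counts over the mite libraries and 3 over the controls, a ratio of 33.9 (95% exact interval 11.3 to 167, counting error only). The part of such shifts in the gene lists was not tested.

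Set directly against caterpillars, without the controls, mites gave 5147 called genes (25.7%), 2394 higher (11.9%) and 2753 lower (13.7%). Of 17 jasmonate synthesis genes 3 were called higher and 1 lower. LOX2 averaged 10975 ± 924 CPM under mites and 7826 ± 1623 CPM under caterpillars (SD, n = 4 each), a difference of 0.49 ± 0.36, and VSP2 differed by 0.09 ± 0.46. Neither gene was called, which does not show that the pests act alike on them. Higher under mites were 14 of 16 CRK genes, 13 of 16 salicylic acid output genes and 9 of 12 salicylic acid synthesis genes, and none of these lists had a gene called lower. CRK13 averaged 28.7 ± 3.63 CPM under mites and 2.42 ± 0.818 CPM under caterpillars (SD, n = 4 each), a difference of 3.55 ± 0.29. PR2 averaged 447 ± 128 CPM under mites and 46.9 ± 24.2 CPM under caterpillars (SD, n = 4 each), a difference of 3.26 ± 0.49.

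Of 11 MYC branch output genes 4 were higher under mites, among them THI2.1 by 3.12 ± 0.30 and MBP1 by 2.53 ± 0.32. Among 9 tested volatile and triterpene genes 5 were higher, with CYP82G1 by 2.98 ± 0.33, and 1 was lower, TPS10 at -1.09 ± 0.32. BSMT1 was not called (0.69 ± 0.27). All 8 chaperone genes of the endoplasmic reticulum were higher. EARLI1, a lipid-transfer family gene, averaged 43.5 ± 6.24 CPM under mites and 3.87 ± 1.74 CPM under caterpillars (SD, n = 4 each), a difference of 3.47 ± 0.33. The proteinase AT3G49340 averaged 5.93 ± 1.48 CPM under mites and 0.0403 ± 0.0306 CPM under caterpillars (SD, n = 4 each), a difference of 6.90 ± 0.49. Lower under mites were 10 of 16 aliphatic glucosinolate genes, with IPMI2 at -0.84 ± 0.15, 24 of 27 light harvesting genes and 15 of 17 Calvin cycle genes. ILL5 averaged 3.3 ± 1.25 CPM under mites and 24.6 ± 15.9 CPM under caterpillars (SD, n = 4 each), a difference of -2.87 ± 0.46. OEP6, a chloroplast envelope protein, averaged 31.1 ± 2.98 CPM under mites and 139 ± 8.21 CPM under caterpillars (SD, n = 4 each), a difference of -2.16 ± 0.09.

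With all controls in the fit, few genes were called as differing in mite response by seed treatment, and their number was not stable. The interaction, not-primed minus primed response, was called in 221 genes (1.1%), 115 higher (0.574%) and 106 lower (0.529%). With RLE size factors the split was 89 higher and 160 lower. The count depended on the controls: it was 2069 without control replicates 3 and 4 and 111 without replicates 1 and 2. It also moved by over 1.5 times without single not-primed libraries, to 110, 125 and 116 without mite replicates 1, 2 and 4, and to 80, 121, 607 and 611 without control replicates 1, 2, 3 and 4. Primed libraries were not left out. With all controls, none of the jasmonate, salicylic acid or indole glucosinolate genes in the lists was called. These lists were not counted in the fits without a control pair. BT5 changed by -2.65 in not-primed plants and -1.08 in primed plants, a difference of -1.57 ± 0.19, and BT1 by -0.69 and -2.01, a difference of 1.32 ± 0.15. PYL5 changed by -1.07 in not-primed and 0.53 in primed plants (-1.60 ± 0.23), and OEP6 by -1.61 and -0.77 (-0.85 ± 0.12). P5CS1, which makes the osmolyte proline, changed by 1.28 and -0.12 (1.40 ± 0.26), and EGY3, a plastid protease homologue, by -2.35 and -3.44 (1.08 ± 0.23). In the lists, 10 genes were called, among them NYE1, a chlorophyll breakdown gene, at 0.70 in not-primed and 0.13 in primed plants (0.57 ± 0.12). NYE1 lost its call without control replicate 1 (adjusted p = 0.0552), and EGY3 without mite replicate 1 (0.0528). A gene not called is not shown to respond alike in the 2 kinds of plant.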

How the data were processed

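Per the labels' protocols, a Qiagen RNeasy kit gave the RNA and NEBNext Ultra the libraries. Reads were aligned with HISAT2 to TAIR10, per the submitters' processing notes. The counting tool, its strand setting and its treatment of reads with several matches are not given in these sources, so genes with close copies or antisense partners may share reads. The authors deposited raw counts per gene for all 24 libraries (totals of 15852109 to 27986799) and FPKM values per library. Of 32833 gene IDs, 32548 (99.1%) were paired with the RefSeq gene table of TAIR10.1 for names, and 6603 had no count in any library.

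Counts were tested with edgeR 4.0.16 in R 4.3.3: filterByExpr, TMM factors, a quasi-likelihood fit of all 24 libraries with 6 group means, and Benjamini-Hochberg adjustment over all tested genes at 0.05. Each SE was taken as the size of the log2 fold change divided by the root of its F value. Deposited FPKM values gave ranks and, with limma 3.58.1 on log2(FPKM + 1) or log2(FPKM + 0.1), an alternative test. DESeq2 1.42.0, RLE size factors, no filter, a replicate block, the 8 libraries alone, left-out libraries and a fold of 2 as a further threshold were the other alternatives. Exact intervals are at 95% and, like the floor of 3 counts, cover counting error only. The test was also run on simulated counts with known changes, drawn from a pooled mean profile. That profile lacks the split of the controls, so no conclusion on these data is drawn from it. Tables and figures used Python 3.11.15 with pandas 2.3.3, scipy 1.17.1 and matplotlib 3.10.9.

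The comparison, its gene lists (44 of pathways and 8 of markers) and the tests were chosen with earlier results of these data known. Named genes are the 15 highest and 15 lowest called against both control pairs with groups that do not overlap and at least 5 CPM in a group, the 5 most abundant changed genes in each direction, the 5 highest and 5 lowest called against a single pair, in each list the 4 of smallest adjusted p with members called against its trend or not tested, 12 sentinels, and the 5 highest and 5 lowest in the other contrasts. Not every gene so named is printed. Of 168 genes with values in the text, 44 fall outside the rule and were chosen after their values were seen.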

Additional observations from a re-analysis of the deposited data

Results flagged for a closer look

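Of 130 groups of 4 libraries checked, for 65 genes with values printed per library, 5 held a library far from the other three, and chance gives about 1 in 20. VSP2 reached 4514 CPM in mite replicate 4 and AT2G43530 974 CPM in the same library. FLS1 stood at 25.8 CPM in mite replicate 1, above the other mite libraries and below all controls. Among the controls, replicate 3 was apart for AT3G49340, at 0.234 CPM, and for WRKY30, at 1.08 CPM.

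The response to mites differed between not-primed and primed plants, by the interaction in edgeR's quasi-likelihood test, in 7 of the genes with values above. The difference, not-primed minus primed response on the log2 scale, was 1.40 for P5CS1, 1.32 for BT1, 1.08 for EGY3 and 0.57 for NYE1. It was -1.60 for PYL5, -1.57 for BT5 and -0.85 for OEP6. The number of genes with such a difference moved with the control libraries used.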

How the results depend on the processing

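The count of 10298 genes called between mites and control was 10304 with RLE size factors, 10266 in DESeq2, 9505 with the 8 libraries alone and 9300 to 10187 with single libraries left out, and a fold of 2 as a further threshold left 2071. The contrast of mites with caterpillars gave 4053 to 4835 genes with single libraries left out. The interaction with seed treatment was the least stable count: 643 genes in DESeq2, 111 without control replicates 1 and 2, 2069 without control replicates 3 and 4, and 80 to 611 with single libraries left out, all of them not-primed. The cause was not tested. Counting only the genes that pass the filter in each pair's own fit, an alternative chosen after seeing the data, gave 10174 genes against control replicates 1 and 2 and 7587 against replicates 3 and 4. The correlation of deviations of same-numbered mite and control libraries was -0.175, 0.070, -0.101 and 0.045. The split of the controls enters these deviations, so the values cannot show whether replicate numbers pair the samples. With replicate number as a block, 10268 genes were called between mites and control, 5103 between mites and caterpillars and 185 in the interaction. Of 187 gene results with single libraries left out, 168 kept direction and call, 13 changed call and 6 changed sign. The mite-minus-control change of these genes turned sign without control replicates 3 and 4: FMO1 (5.62), CYP71A13 (4.71), KTI1 (1.66), LTP4 (0.98), IPMI2 (0.18), CHI (0.13), TPL (0.021) and CRK41 (-0.20). Without control replicates 1 and 2 it turned for ALD1 (-0.62), PAD3 (-0.20), MYB51 (-0.011) and GLR3.6 (0.026). With FPKM it turned for CYP71A13 at a pseudocount of 1, with or without the filter (0.89), and at a pseudocount of 0.1 for CYP71A13 (1.80), FMO1 (0.48) and KTI1 (0.15). CYP71A13 also turned with the block (0.25). With single libraries left out the change ran over -0.042 to 0.021 for TPL, -0.83 to 0.61 for FMO1, -0.88 to 0.015 for KTI1, -0.068 to 1.37 for ALD1, -0.51 to 0.91 for CYP71A13 and -0.046 to 0.23 for CRK41. Chloroplast and mitochondrial transcripts were 0.031% to 0.0367% of the counts of tested genes under mites and 0.0391% to 0.0534% in controls, in the same order as with all counts as the total. Genes with a few counts per library, such as DAD1, are limited by depth.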
